A study of Homo sapiens with 16 samples.

Results

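The genes described here are 38 genes of the ATF4 amino acid response, all 38 of which were found among the 60448 Ensembl genes counted in the series. They were chosen by gene symbol from the known targets and partners of ATF4, at a time when their levels in these same libraries had already been seen. Their levels across the groups are therefore a description, and the p-values below are not independent support for the choice. By role they are 8 transcription factors, 6 feedback and stress signalling genes, 4 secreted factors, 12 biosynthetic enzymes and 8 transporters. RNA was sequenced from HMLER cells, a human mammary epithelial line that was immortalized and transformed with introduced genes, in 16 libraries forming 8 groups of 2. All groups shared 1 culture medium, which contained insulin, EGF and hydrocortisone, and RNA came from cultured or sorted cells, without a label saying which. In the sgEED-Mes and sgEED-Epi groups, C1 cells carried a guide against EED, a core subunit of the Polycomb complex PRC2, and were in a mesenchymal or an epithelial state (genotype EED-KO). In sgKMT2D-Mes and sgKMT2D-Epi they carried a guide against KMT2D, a histone H3 methyltransferase of enhancers (genotype KMT2D-KO). The sgControl group was C1 with a control guide. The unedited groups were C2-Mes, mesenchymal, C2-Epi, a plastic epithelial group, and C1, a stable epithelial group, and the genotype of these 3 and of sgControl is given as wild type. No label gives the number of clones behind a group. None says whether the 2 libraries of a group came from separate cultures, so a p-value here reflects how far these particular libraries scatter, which may be technical.

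ATF4 is a transcription factor whose mRNA is translated more when the initiation factor eIF2 is phosphorylated, as happens when amino acids run short or unfolded proteins accumulate in the endoplasmic reticulum. It binds DNA as a dimer with C/EBP family members at composite C/EBP-ATF elements and raises genes for amino acid uptake, amino acid synthesis and tRNA charging. Its targets also include genes that damp the response, among them TRIB3 and PPP1R15A. Because ATF4 is controlled largely at translation, its own mRNA need not follow the activity of the protein.

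Composite elements are read here as the letters TGATGNAA on either strand within the 250 bases before a RefSeq gene start (GRCh38.p14). Of the 32 members with a promoter in the RefSeq table, 7 held a match (21.9%), against 1061 of 27305 genes (3.89%). Counted by promoter, since genes can have several, the match stood in 7 of 51 promoters of members (13.7%) and in 1104 of 35116 promoters in all (3.14%). A match is only a run of letters, and nothing follows from its absence elsewhere. The 7 matches are printed to show the element where it was found; the other 25 members with a promoter in the table held none. They are written 5′ to 3′ on the gene's strand, with the match in capitals, and CHAC1 and FGF21 hold it on the opposite strand:
ATF3: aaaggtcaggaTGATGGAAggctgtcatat
CEBPG: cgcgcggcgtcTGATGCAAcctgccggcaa
JDP2: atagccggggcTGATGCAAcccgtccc
CHAC1: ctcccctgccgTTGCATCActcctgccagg
FGF21: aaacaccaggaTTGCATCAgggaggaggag
ASNS: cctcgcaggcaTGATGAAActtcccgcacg
SLC1A5: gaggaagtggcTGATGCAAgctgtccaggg

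The ATF3 stretch lies at chr1:212565205-212565234 and that of FGF21 at chr19:48755459-48755488, both outside the gene as GENCODE 29 draws it. The CEBPG (chr19:33374060-33374089) and JDP2 (chr14:75427995-75428021) stretches lie in introns of longer transcripts. Those of CHAC1 (chr15:40953251-40953280), ASNS (chr7:97872458-97872487) and SLC1A5 (chr19:46784893-46784922) overlap an exon of some transcript of the gene. ASNS encodes asparagine synthetase, the enzyme that makes asparagine from aspartate. NUPR1, PSPH, SHMT2, ALDH1L2, PYCR1 and SLC7A11 have no entry in the promoter table.

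Libraries held between 18872124 and 31950649 counts. EED had 5.22 and 5.50 CPM (counts scaled to library size in the usual CPM unit, with TMM factors) in sgEED-Mes and 26.7 and 29.6 CPM in sgEED-Epi, against 26.6 and 21.6 CPM in sgControl. The transcript was thus low in the mesenchymal EED-KO libraries and did not pass in the libraries labelled sgEED-Epi (log2 0.22, adjusted p = 0.22). KMT2D had 86.6 and 76.8 CPM in sgKMT2D-Mes and 124 and 127 CPM in sgKMT2D-Epi, against 89.9 and 70.9 CPM in sgControl, and rose in the libraries labelled sgKMT2D-Epi (log2 0.64, adjusted p = 0.0067). A guide can disrupt a protein without lowering its mRNA, so these levels do not check the labels of the sgEED-Epi and sgKMT2D groups. In the check of cell state, 8 epithelial markers summed to between 5270 and 13600 CPM in the 10 epithelial libraries. In the 6 mesenchymal libraries they summed to between 65.3 and 1210 CPM. The sgEED-Mes libraries held 1060 and 1210 CPM, and the other mesenchymal ones at most 86.7 CPM. Of the 8 markers, 7 fell in sgEED-Mes over sgEED-Epi and 1 did not pass. Leukocyte markers summed to at most 1.55 CPM. Endothelial markers summed to 18.6 and 30.7 CPM in C2-Mes and to at most 4.6 CPM in the other libraries. The 2 sgControl libraries stood apart in 1 respect that touches all comparisons with them: ribosomal protein transcripts made up 5.95% and 7.22% of their counts, against 3.27% to 5.0% in the other 14 libraries. The 2 C2-Mes libraries differed from each other more than other pairs, by a median of 0.49 on the log2 scale over all genes, and 15 of 37 members differed over 1.5-fold between them. In bulk RNA, fewer cells of a type and less RNA per cell cannot be told apart.

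Of the 38 members, 37 passed the filter on low counts. The one that did not is FGF21, a hormone gene best known from liver, with 0 to 7 counts per library and 31 in all. CBS passed with 30 to 179 counts, and its near-identical copy CBSL had at most 4, so reads could be split between them. DDIT3 lies opposite MARS (a mean of 504.5 counts for DDIT3 and 4444.7 for MARS) and ATF5 opposite NUP62, and whether strand was used in counting is not given in the sources used here. Values of DDIT3 and ATF5 can therefore hold reads of those neighbours.

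**Figure D1:**
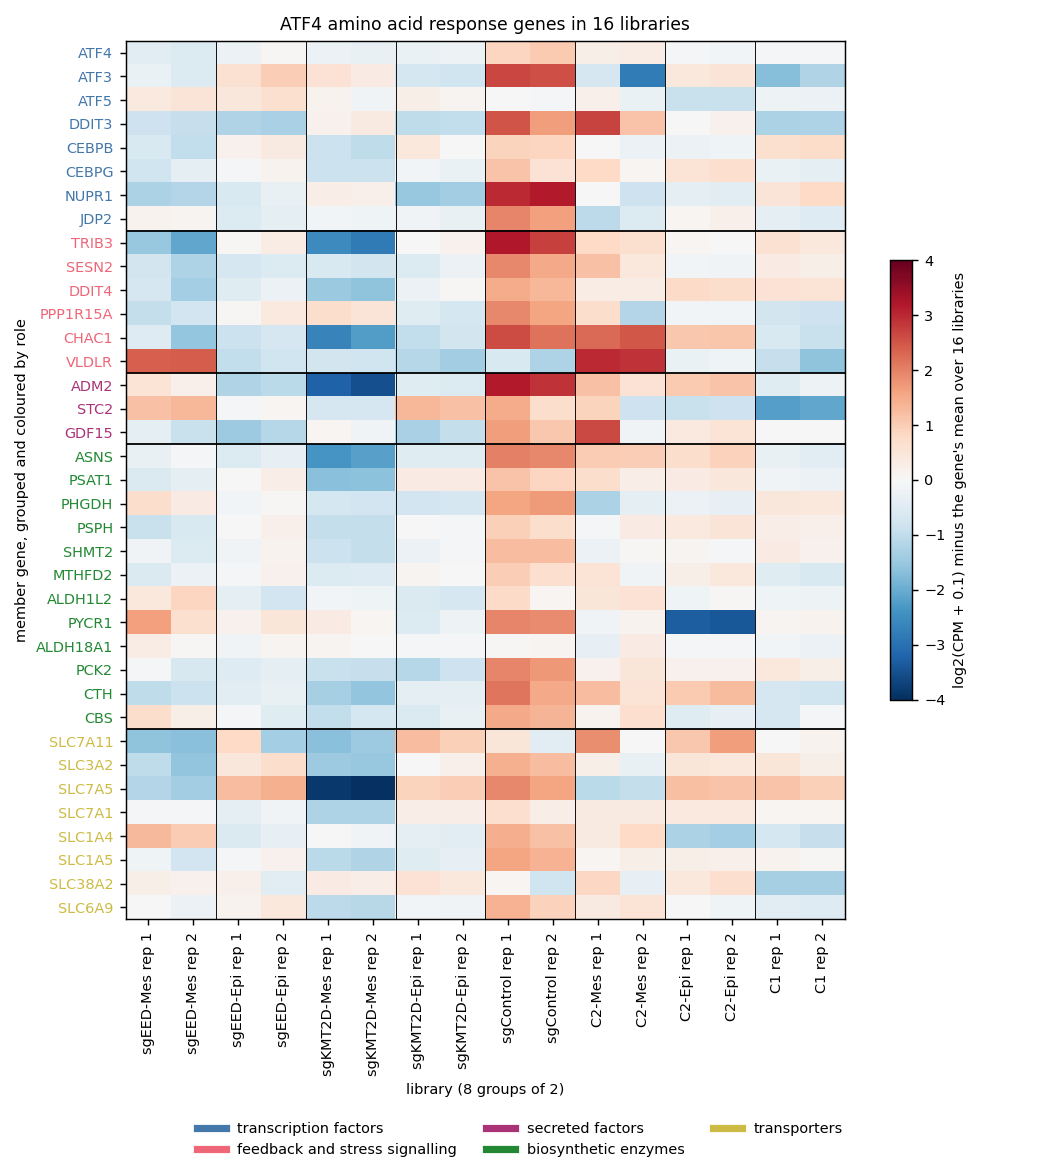
Colour gives log2 CPM of each of 37 members (rows, grouped by role) in each of 16 libraries (columns, 8 groups of 2), less the gene's own mean. The sgControl columns are the highest group for 29 of the 37 members (for 21.7% of all genes). The sgKMT2D-Mes columns are the lowest for 18 (for 13.4% of all genes).

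The highest levels were in the control-guide cells. The sgControl group had the highest mean for 29 of 37 members (for 21.7% of all 18285 genes tested). Both sgControl libraries lay above all 14 others for 24 of 37 (for 12.7% of all genes). Against unedited C1, 31 of 37 members rose in sgControl and 0 fell, where 13.3% of all genes tested were called higher and 13.8% lower. All 37 log2 changes were above 0, with a median of 1.41, against 0.02 over all genes. Beside this difference, the summed level of 8 mesenchymal markers was 24300 and 23000 CPM in sgControl and 14100 and 13900 CPM in C1. Most of that sum was FN1 (fibronectin), with 22460 and 20900 CPM in sgControl, against 13230 and 13100 CPM in C1. Of the 8 markers, FN1, VIM and COL3A1 rose and 5 did not pass, among them CDH2 at log2 -1.06 (adjusted p = 0.13). The ribosomal protein share differed as given above. The part of either in the members' result was not tested. Leaving out each of the 4 libraries in turn kept 26 of the 31 calls, and the calls of ALDH1L2, PSPH, SLC38A2, SLC3A2 and SLC7A1 were lost in at least 1 of these fits.

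Among the transcription factors, 6 of 8 rose in sgControl. ATF4 (ENSG00000128272, chr22:39519695-39522685) had 784 and 888 CPM in sgControl, against 417 and 408 CPM in C1. The groups did not overlap, and ATF4 rose by log2 1.02 ± 0.13 (SE, n = 2 per group, adjusted p = 0.00011). ATF3, a stress-induced repressor and activator of the same family, had 565 and 539 CPM in sgControl, against 27.5 and 38.6 CPM in C1, the largest rise of any member (log2 4.06 ± 0.49, adjusted p = 9.2e-05). DDIT3, which encodes CHOP, a partner of C/EBP proteins and a promoter of cell death under stress, had 76.9 and 43.1 CPM in sgControl, against 5.52 and 5.69 CPM in C1 (log2 3.42 ± 0.41, adjusted p = 9.2e-05). NUPR1, a small stress-induced nuclear protein, and JDP2, a Jun dimerization protein, rose by log2 2.42 and 2.26. CEBPG, a dimer partner of ATF4, rose by log2 1.20. CEBPB (log2 0.20, adjusted p = 0.41) and ATF5 (log2 0.19, adjusted p = 0.45) did not pass the test.

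Of the 6 feedback and stress signalling genes, 5 rose in sgControl. TRIB3, a pseudokinase that binds and restrains ATF4 (ENSG00000101255, chr20:362835-397559), had 750.1 and 538 CPM in sgControl, against 124 and 109.9 CPM in C1. Each sgControl library thus lay over 4-fold above each C1 library, and the change was log2 2.46 ± 0.21 (adjusted p = 4.9e-06). CHAC1, which breaks down glutathione, had 63.3 and 47.3 CPM in sgControl, against 6.71 and 5.48 CPM in C1 (log2 3.18 ± 0.28, adjusted p = 7.1e-06). PPP1R15A, the subunit that directs a phosphatase to eIF2, rose by log2 2.54 ± 0.41 (adjusted p = 0.00073). SESN2 and DDIT4, both of which restrain mTORC1, rose by log2 1.44 and 0.85. VLDLR, a lipoprotein receptor, had 1.72 and 1.07 CPM in sgControl and 1.36 and 0.818 CPM in C1 and did not pass (log2 0.36, adjusted p = 0.38). Of the secreted factors, the peptide hormone gene ADM2 had 37.2 and 30.8 CPM in sgControl, against 2.84 and 3.48 CPM in C1 (log2 3.42 ± 0.23, adjusted p = 1.3e-06). STC2, which encodes a stanniocalcin glycoprotein, had 199.8 and 116 CPM in sgControl, against 15.7 and 16.8 CPM in C1 (log2 3.28 ± 0.41, adjusted p = 0.00013). GDF15, a TGF-beta family cytokine, had 109.6 and 73.5 CPM in sgControl and 34.1 and 34.2 CPM in C1, and did not pass (log2 1.42 ± 0.57, adjusted p = 0.079).

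Of the 12 biosynthetic enzymes, 11 rose. ASNS (ENSG00000070669, chr7:97852118-97872542) had 412 and 384 CPM in sgControl, against 82.9 and 74.1 CPM in C1 (log2 2.34 ± 0.15, adjusted p = 6.4e-07). The 3 enzymes of serine synthesis rose unequally: PHGDH, the first step, by log2 1.20 ± 0.22, PSAT1, the second, by 1.20 ± 0.16, and PSPH, the last, by 0.60 ± 0.16. The mitochondrial one-carbon enzymes SHMT2, MTHFD2 and ALDH1L2 rose by log2 0.99, 1.37 and 0.64. CTH, which makes cysteine from cystathionine, had 37.5 and 24.3 CPM in sgControl, against 5.26 and 4.75 CPM in C1 (log2 2.63 ± 0.25, adjusted p = 1.2e-05), and CBS, the step before it, rose by log2 1.83. PCK2, the mitochondrial phosphoenolpyruvate carboxykinase, rose by log2 1.52. Of the proline pair, PYCR1, the last step, rose by log2 1.80 ± 0.25 (adjusted p = 0.00027), whereas ALDH18A1, the first, did not pass (log2 0.26, adjusted p = 0.32).

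Of the 8 transporters, which bring in or exchange amino acids, 7 rose in sgControl over C1. SLC7A5, the light chain of the large neutral amino acid exchanger LAT1 (ENSG00000103257, chr16:87830023-87869488), had 1621 and 1275 CPM in sgControl, against 929.6 and 819.7 CPM in C1 (log2 0.73 ± 0.15, adjusted p = 0.0028). Its heavy chain SLC3A2 rose by log2 0.97 and the cationic amino acid carrier SLC7A1 by log2 0.39 (adjusted p = 0.048). The neutral amino acid carriers SLC1A4 and SLC1A5 rose by log2 2.16 and 1.41, and the glycine carrier SLC6A9 by log2 1.65. SLC38A2, a sodium-coupled neutral carrier, had 853.5 and 461 CPM in sgControl, against 323 and 325 CPM in C1 (log2 1.02 ± 0.33, adjusted p = 0.036). SLC7A11, the cystine and glutamate exchanger, had 82.2 and 43.9 CPM in sgControl and 59.0 and 65.3 CPM in C1, so that the groups overlapped (log2 0.02, adjusted p = 1).

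**Figure D2:**
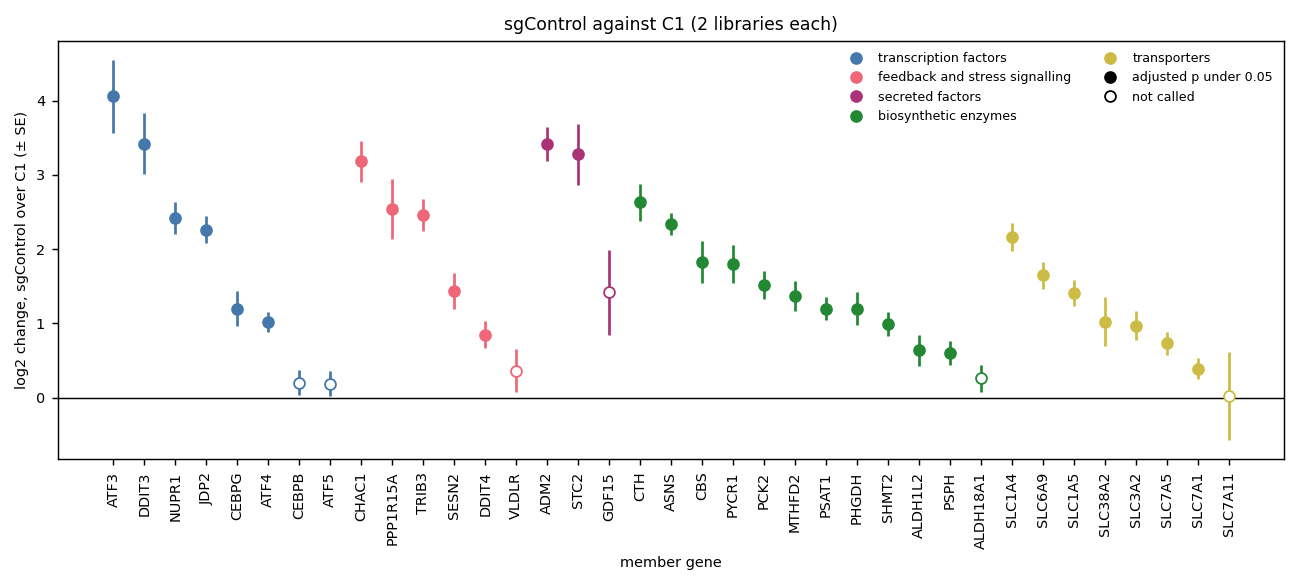
Points give the log2 change of each of 37 members in sgControl over C1, with bars of 1 SE, coloured by role, and open where not called. All 37 points lie above 0, and 31 are filled.

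The epithelial cells with a guide against EED or KMT2D were next compared with the control guide. Because sgControl was the highest group for most members, each comparison is given beside the same cells against C1, the line they derive from, and all 4 comparisons share control libraries with each other or with the one above. In sgEED-Epi, 1 member rose and 32 fell against sgControl (24.3% and 24.6% of all genes), with a median log2 change of -1.44. Against C1, 6 rose and 5 fell (12.5% and 12.6% of all genes), with a median of 0.00. Leaving out each of these 4 libraries in turn, 4 to 5 rose and 2 to 3 fell, with 2 falling without C1 replicate 1 or sgEED-Epi replicate 1 and 3 without either of the others, and 4 rising in every case but without sgEED-Epi replicate 2. Fewer of all genes were called in each of these fits too. The same held for sgKMT2D-Epi against C1 with 1 library left out. In sgKMT2D-Epi, 0 members rose and 30 fell against sgControl (25.3% and 30.7%), with a median of -1.52, against -0.09 over all genes. DESeq2 called 1 member higher where edgeR called 0, and 1 member, SLC38A2, was higher at an unadjusted edgeR p under 0.05. Against C1, 4 rose and 7 fell (16.4% and 22.4%), with a median of -0.10. Here 3 fell without either C1 library and 4 without either sgKMT2D-Epi library, and 2 rose without C1 replicate 2 or sgKMT2D-Epi replicate 1.

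ATF4 had 363 and 442 CPM in sgEED-Epi and 353 and 375 CPM in sgKMT2D-Epi, against 784 and 888 CPM in sgControl. It fell by log2 1.06 ± 0.13 and 1.20 ± 0.13 (adjusted p = 2e-05 and 4.9e-06), and neither guide gave a call against C1 (417 and 408 CPM, log2 -0.03 and -0.18). ASNS had 69.7 and 82.3 CPM in sgEED-Epi and 73.5 and 73.3 CPM in sgKMT2D-Epi, against 412 and 384 CPM in sgControl. The C1 libraries, at 82.9 and 74.1 CPM, overlapped those of sgEED-Epi, and the log2 changes were -2.39 and -2.44 against sgControl and -0.05 and -0.10 against C1. CHAC1 and TRIB3 gave the same picture, with log2 changes of -3.19 and -2.81 in sgEED-Epi over sgControl, and -0.01 and -0.35 over C1. NUPR1 was lower than in either control: 27.5 and 33.6 CPM in sgEED-Epi and 14.4 and 15.9 CPM in sgKMT2D-Epi, against 332 and 377 CPM in sgControl and 60.1 and 72.1 CPM in C1. It fell against C1 by log2 1.12 in sgEED-Epi and 2.12 in sgKMT2D-Epi (adjusted p = 0.0022 and 1.1e-05).

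Other members that fell against both controls with both guides were the mTORC1 restraints SESN2 and DDIT4, and PCK2. PCK2 had 24.5 and 27.3 CPM in sgEED-Epi and 16.1 and 19.9 CPM in sgKMT2D-Epi, against 136.5 and 118.5 CPM in sgControl and 47.2 and 41.6 CPM in C1. CEBPB and SLC1A5 fell against both controls in sgKMT2D-Epi, as did PHGDH (log2 -2.37 over sgControl, and -1.17 over C1). In sgEED-Epi it passed against sgControl (log2 -1.68) but not against C1 (log2 -0.48, adjusted p = 0.13). ADM2 fell against both in sgEED-Epi (log2 -4.26 and -0.84). For other members the call or its direction depended on the control. With C1 in place of sgControl, 23 called changes changed sign, counted over both guides, and these are listed with the processing below. Most of the 23 did not pass against C1, where only 6 members in sgEED-Epi and 4 in sgKMT2D-Epi were called higher. STC2 had 69.5 and 75.9 CPM in sgEED-Epi and 181.5 and 163 CPM in sgKMT2D-Epi, against 199.8 and 116 CPM in sgControl and 15.7 and 16.8 CPM in C1. Over C1 it rose with both guides (log2 2.16 and 3.41), although over sgControl it fell in sgEED-Epi (log2 -1.12) and did not pass in sgKMT2D-Epi (log2 0.13, adjusted p = 0.80). MTHFD2 and SLC38A2 also rose over C1 with both guides, by log2 0.59 and 1.24 in sgEED-Epi and by 0.60 and 1.82 in sgKMT2D-Epi. Over sgControl MTHFD2 fell with both guides (log2 -0.78 and -0.77), and SLC38A2 did not pass. ATF3 rose over C1 in sgEED-Epi (log2 2.26, adjusted p = 0.0029) and fell over sgControl (log2 -1.81).

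ATF5 had 24.6 and 27.6 CPM in sgEED-Epi, against 17.8 and 17.1 CPM in sgControl and 15.5 and 15.2 CPM in C1. It was the 1 member that rose in sgEED-Epi over sgControl (log2 0.58, adjusted p = 0.011). Leaving out sgControl replicate 2 or sgEED-Epi replicate 2 ended this call (adjusted p = 0.054 and 0.052). CEBPB, which fell in sgEED-Epi and sgKMT2D-Epi over sgControl (log2 -0.61 and -0.64), turned to log2 0.19 and 0.74 with a correction for GC content and length, and SLC7A5 (log2 -0.44 and -0.83) turned to 0.08 and 0.12. SLC7A11 differed between the 2 sgEED-Epi libraries (103 and 23.2 CPM) by log2 2.15, the widest gap of any member in that group. ALDH18A1 and VLDLR passed against neither control with either guide. GDF15 fell against sgControl with both guides (log2 -2.70 and -2.53) and did not pass against C1 (adjusted p = 0.12 and 0.14).

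**Figure D3:**
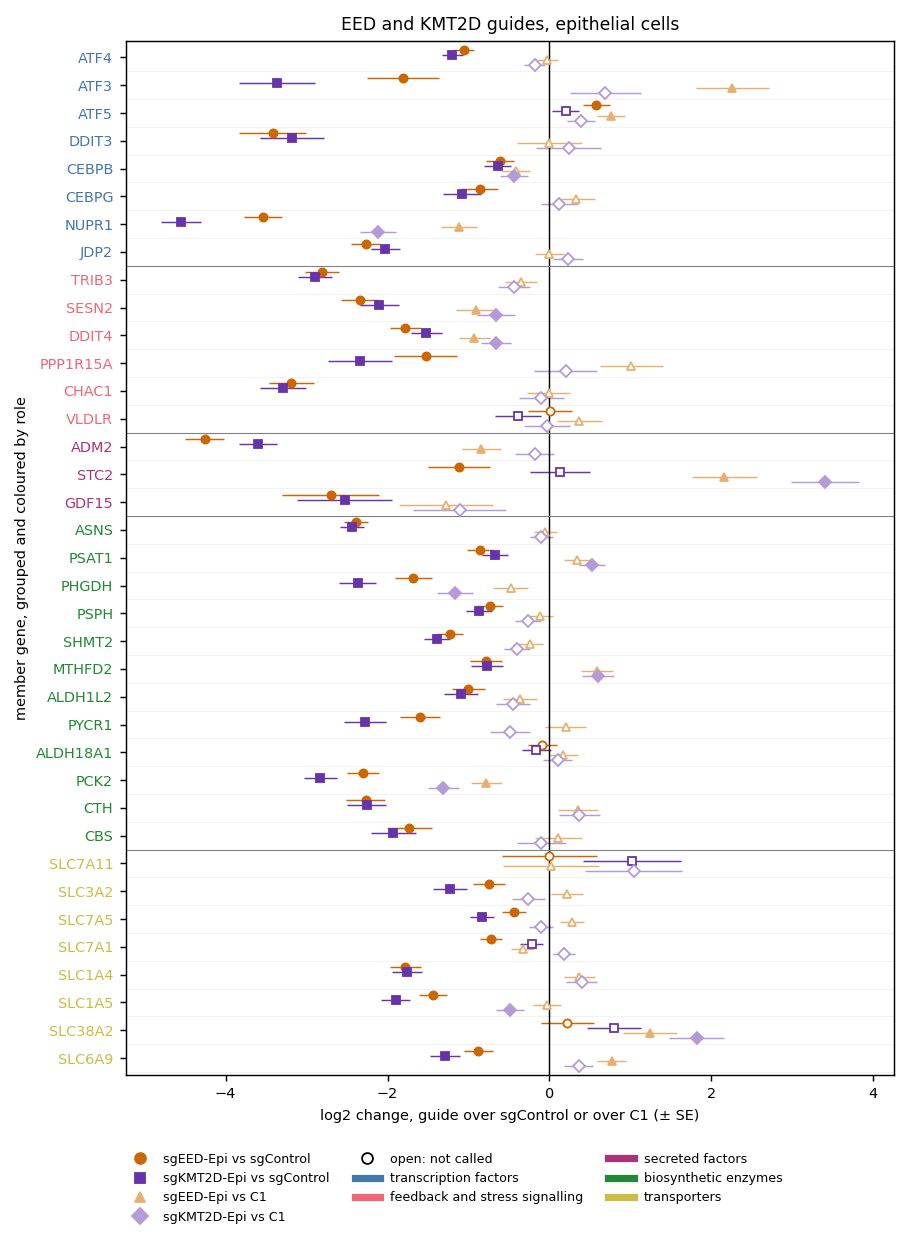
Points give the log2 change of each of 37 members in sgEED-Epi and sgKMT2D-Epi, over sgControl (dark) and over C1 (pale), with bars of 1 SE and open where not called. Most dark points lie left of 0 and most pale points around 0, with medians of -1.44 and -1.52 over sgControl and 0.00 and -0.10 over C1.

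The plastic epithelial C2-Epi group was set against the stable C1 group, both unedited. Of 37 members 13 rose and 5 fell (12.4% and 18.3% of all genes), with a median log2 change of 0.22, against -0.04 over all genes. Those that rose came from every role. ASNS had 167.5 and 192.5 CPM in C2-Epi, against 82.9 and 74.1 CPM in C1 (log2 1.20 ± 0.14, adjusted p = 3.7e-05). CTH had 17.2 and 20.1 CPM in C2-Epi, against 5.26 and 4.75 CPM in C1 (log2 1.90 ± 0.25, adjusted p = 8.4e-05). SLC38A2 had 1083 and 1284 CPM in C2-Epi, against 323 and 325 CPM in C1 (log2 1.87 ± 0.34, adjusted p = 0.0012), and C2-Epi had the highest mean of any group for this carrier. CHAC1, ATF3, ADM2 and DDIT3 rose by log2 1.86, 1.90, 1.47 and 1.36, and STC2, VLDLR, CEBPG, MTHFD2, JDP2 and PSAT1 by 0.59 to 1.29. ATF4 itself did not pass (410 and 396 CPM in C2-Epi, 417 and 408 CPM in C1, log2 -0.03, adjusted p = 0.88).

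PYCR1, which makes proline in mitochondria (ENSG00000183010, chr17:81932384-81942412), was the strongest exception. It had 2.78 and 2.61 CPM in C2-Epi, against 30.7 and 31.2 CPM in C1, and fell by log2 3.52 ± 0.29 (adjusted p = 1.9e-06). No other group came near this level: the next lowest libraries of PYCR1 were those of sgKMT2D-Epi, at 19.5 and 24.7 CPM. NUPR1 (log2 -1.09), CEBPB (-0.89), PHGDH (-0.71) and ATF5 (-0.68) also fell. The calls of PHGDH and ATF5, and that of STC2 among those that rose, were lost without any 1 of the 4 libraries. The counts depended on the fit. With any 1 of the 4 C1 and C2-Epi libraries left out, a smaller share of all genes was called too. With the correction for GC content and length 22 members rose and 2 fell (17.2% and 13.3% of all genes under that correction). With only the 4 compared libraries 21 rose and 8 fell (30.6% and 32.3% of all genes in that fit), so the share of members that fell was below that of all genes. Without C1 replicate 2, 7 rose and 2 fell, and without any 1 of the other 3 libraries at most 3 fell. Of the 18 calls, 6 that rose and 2 that fell were kept without each of the 4 libraries.

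**Figure D4:**
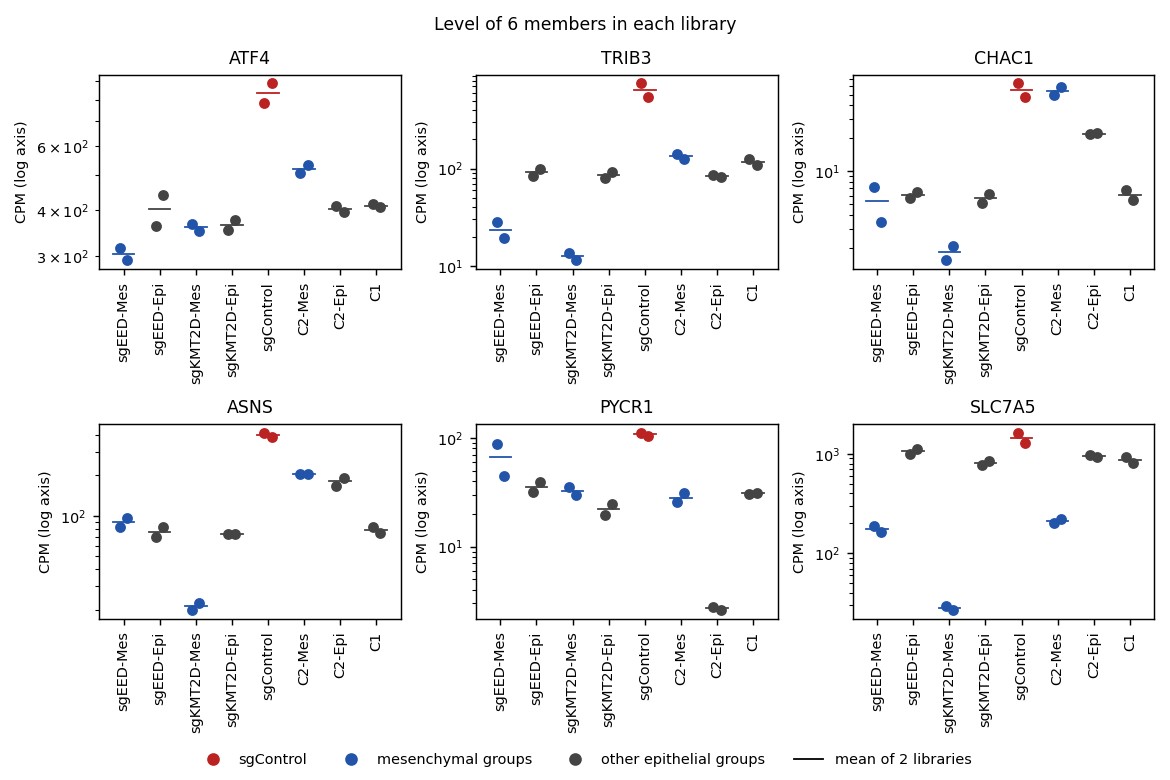
Points give the CPM (log axis) of 6 members in each library, with a line at the mean of the 2 libraries of a group. The sgControl libraries lie highest in 5 panels and share the top with C2-Mes for CHAC1. PYCR1 is lowest in C2-Epi (2.78 and 2.61 CPM) and SLC7A5 in sgKMT2D-Mes (29.2 and 26.9 CPM).

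The mesenchymal cells were compared with epithelial cells in 3 pairs that share no library. In sgEED-Mes over sgEED-Epi, 8 members rose and 14 fell (19.2% and 17.3% of all genes), with a median of -0.33. In sgKMT2D-Mes over sgKMT2D-Epi, 4 rose and 19 fell (26.8% and 24.0%), with a median of -0.61. In C2-Mes over C2-Epi, 13 rose and 3 fell (21% and 18.6%), with a median of 0.11. The medians over all genes were 0.01, 0.02 and 0.01. Only 1 member, SLC7A5, was called in the same direction in all 3 pairs, 10 were called in both directions, and GDF15, PHGDH, ALDH18A1, PCK2 and SLC38A2 were called in none.

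SLC7A5 had 190.2 and 163.5 CPM in sgEED-Mes, against 999.7 and 1129 CPM in sgEED-Epi (log2 -2.59 ± 0.15, adjusted p = 1.6e-08). It had 29.2 and 26.9 CPM in sgKMT2D-Mes, against 782 and 846 CPM in sgKMT2D-Epi (log2 -4.86 ± 0.17, adjusted p = 1.3e-10). In C2-Mes it had 199.8 and 222 CPM, against 984 and 929 CPM in C2-Epi (log2 -2.18 ± 0.15, adjusted p = 5.3e-08). All 6 mesenchymal libraries thus lay below all 10 epithelial ones, and the calls held without each library. Its heavy chain SLC3A2, which also pairs with SLC7A11, fell with both guides (log2 -1.85 in sgEED-Mes and -1.60 in sgKMT2D-Mes) and did not pass in C2-Mes (log2 -0.46, adjusted p = 0.085).

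In the KMT2D pair, the mesenchymal group was the lowest of all groups for more members than any other group. Both sgKMT2D-Mes libraries lay below all 14 others for 15 of 37 members (for 6.27% of all genes tested), and this group had the lowest mean for 18 of 37 (for 13.4% of all genes). ASNS had 19.9 and 22.5 CPM in sgKMT2D-Mes, against 73.5 and 73.3 CPM in sgKMT2D-Epi (log2 -1.79 ± 0.15, adjusted p = 2.7e-07). PSAT1 had 56.9 and 57.5 CPM in sgKMT2D-Mes, against 227.5 and 226.8 CPM in sgKMT2D-Epi (log2 -1.99 ± 0.17, adjusted p = 4.1e-07). In both genes the 2 libraries of a group were close and the groups far apart. TRIB3 had 13.7 and 11.4 CPM in sgKMT2D-Mes, against 80.6 and 91.8 CPM in sgKMT2D-Epi (log2 -2.78 ± 0.21, adjusted p = 1.5e-07). ADM2 had 0.335 and 0.263 CPM in sgKMT2D-Mes, against 2.84 and 2.75 CPM in sgKMT2D-Epi (log2 -3.20 ± 0.33, adjusted p = 2.4e-06).

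Of the 8 transporters, 6 fell in sgKMT2D-Mes over sgKMT2D-Epi and 0 rose: beside SLC7A5 and SLC3A2, SLC7A11 (log2 -2.67), SLC7A1 (-1.51), SLC6A9 (-0.96) and SLC1A5 (-0.73). Of the 12 enzymes 6 fell and 0 rose, with CTH at log2 -1.11, PSPH at -0.93, SHMT2 at -0.75 and MTHFD2 at -0.61 beside ASNS and PSAT1. STC2 (log2 -1.93), CHAC1 (-1.64), DDIT4 (-1.45), CEBPB (-1.18) and CEBPG (-0.68) fell as well. ATF4 did not change past the threshold (366 and 352 CPM in sgKMT2D-Mes, 353 and 375 CPM in sgKMT2D-Epi, log2 -0.02, adjusted p = 0.91). The other 4 called members rose. NUPR1 had 49.7 and 47.8 CPM in sgKMT2D-Mes, against 14.4 and 15.9 CPM in sgKMT2D-Epi (log2 1.68 ± 0.22, adjusted p = 2.6e-05). DDIT3, ATF3 and PPP1R15A rose by log2 1.27, 1.21 and 1.19, but without any 1 of the 4 libraries each of these 3 calls was lost. Their log2 changes there stayed at 1.11 to 1.29, 1.01 to 1.27 and 1.01 to 1.24. All 3 calls were kept with only the 4 compared libraries, a fit that called 37.5% of all genes higher.

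In the EED pair members were called in both directions. The 8 of 37 that rose were near the share of all genes (19.2%), and the 14 that fell were above it (17.3%). TRIB3 had 28.1 and 19.2 CPM in sgEED-Mes, against 84.2 and 99.2 CPM in sgEED-Epi (log2 -1.95 ± 0.21, adjusted p = 4.6e-06), and CEBPB (log2 -1.05), PSPH (-0.85) and PSAT1 (-0.63) fell too. VLDLR had 14.4 and 14.8 CPM in sgEED-Mes, against 1.29 and 1.51 CPM in sgEED-Epi (log2 3.37 ± 0.25, adjusted p = 1.2e-07). SLC1A4 had 26.4 and 21.8 CPM in sgEED-Mes, against 7.24 and 8.49 CPM in sgEED-Epi (log2 1.62 ± 0.19, adjusted p = 1.3e-05). ADM2 and ALDH1L2 rose by log2 1.59 and 1.19. These calls, other than that of PSAT1, held without each library. ASNS did not pass (log2 0.23, adjusted p = 0.22), and ATF4 fell by log2 0.41 (adjusted p = 0.022, and 0.11 without sgEED-Epi replicate 2). Fewer members were called in either direction with any 1 of the 4 libraries left out, and fewer of all genes too. The 14 set beside 17.3% thus describe the fit of all 16 libraries. Medians over members (all genes in brackets) were -0.30 (0.03) and -0.26 (-0.01) on dropping sgEED-Epi replicate 1 or 2. They were -0.48 (-0.04) and -0.17 (-0.02) on dropping sgEED-Mes replicate 1 or 2. SLC7A11 fell by log2 1.73 and only by 0.30 without sgEED-Epi replicate 1, and PYCR1 rose by log2 0.89 and only by 0.27 without sgEED-Mes replicate 1.

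In unedited C2 cells 21 of 37 log2 changes were above 0 and 16 below. The median of 0.11 was -0.13 without C2-Mes replicate 1. PYCR1 had 25.5 and 30.9 CPM in C2-Mes, against 2.78 and 2.61 CPM in C2-Epi (log2 3.39 ± 0.29, adjusted p = 4.9e-07), a level close to that of C1. VLDLR had 21.7 and 20.4 CPM in C2-Mes, against 2.24 and 2.38 CPM in C2-Epi (log2 3.19 ± 0.24, adjusted p = 9.7e-08). SLC1A4 had 13.9 and 18.9 CPM in C2-Mes, against 4.44 and 4.15 CPM in C2-Epi (log2 1.94 ± 0.20, adjusted p = 2.5e-06). CHAC1 had 49.8 and 58.1 CPM in C2-Mes, against 21.8 and 22.4 CPM in C2-Epi (log2 1.29 ± 0.26, adjusted p = 0.0011), near its level in sgControl. These 4 and SLC7A5 were the calls kept when only the 4 compared libraries were fitted. In that fit 4 members rose and 1 fell, neither above the shares of all genes (11.3% and 9.68%).

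The other 11 calls in C2-Mes were lost when only the compared libraries were fitted, and some values moved with 1 library. DDIT3 had 87.7 and 29.5 CPM in C2-Mes, against 13.5 and 15.2 CPM in C2-Epi (log2 2.02, and 0.93 without C2-Mes replicate 1). STC2 had 132.6 and 40.7 CPM in C2-Mes, against 38.9 and 40.4 CPM in C2-Epi (log2 1.12, and -0.07 without C2-Mes replicate 1). GDF15 had 217 and 31.2 CPM in C2-Mes and 45.2 and 50.6 CPM in C2-Epi, so its groups overlapped (adjusted p = 0.07). ATF4 rose by log2 0.37 (507 and 532 CPM in C2-Mes, against 410 and 396 CPM in C2-Epi, adjusted p = 0.033), a call that was lost without each of the 4 libraries. ATF3, at 56.5 and 12.8 CPM in C2-Mes, against 119 and 127 CPM in C2-Epi, and JDP2 fell (log2 -1.84 and -0.91). Without C2-Mes replicate 1 more members were called lower than higher, and the same was true of all genes. The median over members was -0.13 in that fit (-0.10 over all genes) and 0.24 without C2-Mes replicate 2 (-0.05 over all genes). It was 0 without C2-Epi replicate 1 and 0.08 without C2-Epi replicate 2 (-0.03 over all genes in each).

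**Figure D5:**
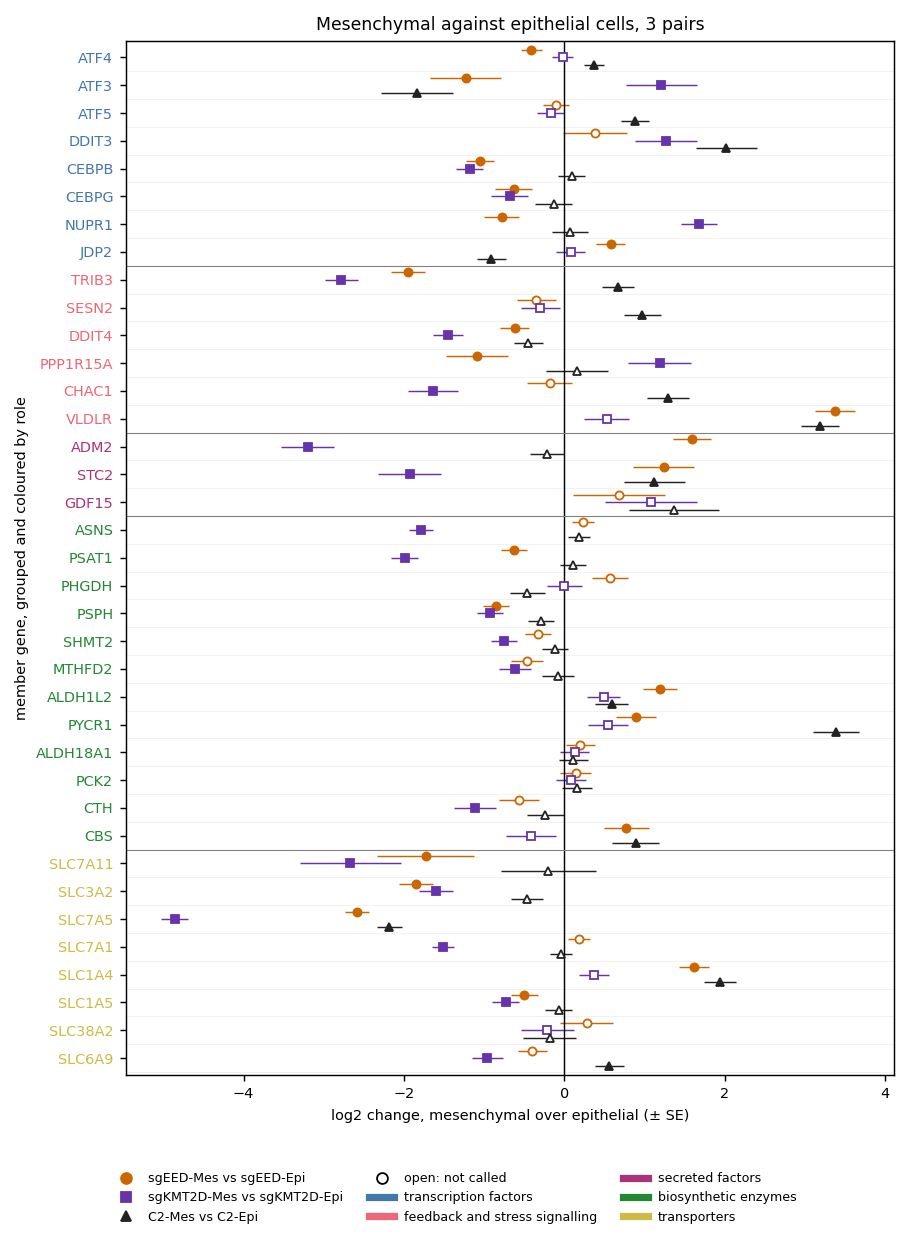
Points give the log2 change of each of 37 members in mesenchymal over epithelial cells for the EED guide, the KMT2D guide and unedited C2 cells, with bars of 1 SE and open where not called. SLC7A5 lies left of 0 in all 3 pairs, and TRIB3, ADM2 and CHAC1 lie on different sides in different pairs.

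Differences between these changes were tested directly. The change in sgEED cells differed from that in C2 cells for 14 members (21.1% of all genes), 3 of them more positive in sgEED and 11 more negative. That in sgKMT2D cells differed from that in C2 cells for 21 members (24.1% of all genes), 3 more positive and 18 more negative in sgKMT2D. Between the guides, 13 members differed (20.1% of all genes), 10 more positive and 3 more negative in sgEED. With only the compared libraries the first of these counts was 6, where 6.26% of all genes were more positive in sgEED and 5.89% more negative. For the enzymes, ASNS differed between the guides by log2 2.02 ± 0.20 and PSAT1 by 1.36 ± 0.23. For the transporters, SLC7A5 differed by 2.27 ± 0.21 and SLC7A1 by 1.68 ± 0.20.

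Across all 8 groups the ATF4 transcript itself varied less than most of its targets. Its mean was 836 ± 73.8 CPM in sgControl (SD, n = 2 here and below), 519 ± 18.2 in C2-Mes, 412 ± 6.44 in C1, 403 ± 9.90 in C2-Epi, 402 ± 55.6 in sgEED-Epi, 364 ± 15.8 in sgKMT2D-Epi, 359 ± 10.3 in sgKMT2D-Mes and 304 ± 16.2 in sgEED-Mes. The highest group was 2.75 times the lowest, and the groups from C1 to sgKMT2D-Mes did not differ beyond their spread from their neighbours in this order. The corresponding ratio was 51.2 for TRIB3, 51.6 for SLC7A5, 30.3 for CHAC1, 18.7 for ASNS, and 114 for ADM2. It was smallest for ALDH18A1, at 1.29. ALDH18A1 was the 1 member called in none of the 7 comparisons.

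Genes of the same pathway outside the 38 members are given by list. Of 20 cytosolic aminoacyl-tRNA synthetases, which charge tRNAs with amino acids, 7 rose and 0 fell in sgControl over C1, led by CARS1 (log2 1.37), AARS1 (1.34), GARS1 (1.21) and YARS1 (0.99), with a list median of 0.12. In sgKMT2D-Mes over sgKMT2D-Epi 0 rose and 16 fell, with a median of -0.69, led by IARS1 (log2 -1.27), FARSB and YARS1 (both -1.18). The shares of all genes there were 26.8% and 24.0%. In sgEED-Mes over sgEED-Epi 0 synthetases rose and 7 fell (19.2% and 17.3% of all genes). In C2-Mes over C2-Epi 3 rose and 1 fell, both below the shares of all genes (21% and 18.6%). Of 15 genes of eIF2, its exchange factor, its kinases and their regulators, 3 rose and 2 fell in sgControl over C1. The kinase gene EIF2AK2 (PKR) had a mean of 46.1 CPM in sgControl, against 95.4 CPM in C1 (log2 -1.05, adjusted p = 0.016).

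Of 13 measured amino acid carriers that are no members, 3 rose and 3 fell in sgControl over C1. In this comparison 13.3% of all genes were called higher and 13.8% lower, the background for all these lists. The leucine carrier SLC43A1 had a mean of 25.2 CPM in sgControl, against 4.01 CPM in C1 (log2 2.65), and its relative SLC43A2 had 2.93 CPM, against 21.3 CPM (log2 -2.86). Of 20 other enzymes of one-carbon and amino acid metabolism 4 rose and 6 fell in the same comparison. Among them the folate enzyme MTHFD1L and the alanine transaminase GPT2 rose (log2 1.04 and 1.35). The light chain SLC7A8 (LAT2) fell with the mesenchymal state in all 3 pairs, as SLC7A5 did: SLC7A8 changed by log2 -3.22 in sgEED-Mes, -1.78 in sgKMT2D-Mes and -3.04 in C2-Mes. The glutamate carrier SLC1A1 rose with both guides, by log2 2.92 in sgEED-Mes and 4.48 in sgKMT2D-Mes.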

How the data were processed

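Raw counts per Ensembl gene were deposited by the authors for 16 libraries, made per the submitters' processing notes with STAR 2.7.1a, GRCh38 and featureCounts. The annotation release, strand setting and treatment of multiply mapped reads are not given in the sources used here. Symbols and coordinates come from GENCODE 29 and promoter sequences from RefSeq (GRCh38.p14). The members and all lists were chosen with earlier results of these data known. Genes were kept with filterByExpr (18285 genes), scaled by TMM and fitted in edgeR 4.0.16 (R 4.3.3) with 1 mean per group over 16 libraries (8 residual degrees of freedom, robust). Quasi-likelihood p-values were Benjamini-Hochberg adjusted over all 18285 genes and called under 0.05. An SE is the log2 change over the root of its F statistic. Named members were those called among ATF4, DDIT3, ASNS, TRIB3, PSAT1, PHGDH, CHAC1, SLC7A11, SLC7A5, SESN2, GDF15 and CEBPB, and up to 6 highest and 6 lowest called changes with at least 1 CPM. Other members are named to account for each, and other pathway genes by up to 4 largest called changes per list with at least 5 CPM. Alternatives were RLE scaling, no low-count filter, DESeq2 1.42.0, the compared libraries only, C1 as control, a GC and length correction (spline, 4 degrees of freedom, genes averaging 50 counts or more), a replicate block and each library left out.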

Additional observations from a re-analysis of the deposited data

Results flagged for a closer look

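Results are listed here because the change from epithelial to mesenchymal cells differed between 2 origins by a test of that difference, over all 18285 genes. In sgEED over C2 cells 14 members differed. The difference of log2 changes was -2.62 for TRIB3, -2.49 for PYCR1, 1.80 for ADM2 and -1.64 for DDIT3. PYCR1 rose in both origins, and its libraries had 2.78 and 2.61 CPM in C2-Epi, lower than in any other group. In sgKMT2D over C2 cells 21 members differed, by -3.44 for TRIB3, 3.06 for ATF3, -3.06 for STC2 and -2.98 for ADM2. The values of ATF3, STC2 and DDIT3 involve the 2 C2-Mes libraries, which differed from each other over 1.5-fold for each of these genes. In sgEED over sgKMT2D cells 13 members differed, by 4.79 for ADM2, 3.17 for STC2, 2.85 for VLDLR and -2.46 for NUPR1. With 2 libraries in a group, no test for a single library far from the others was possible.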

How the results depend on the processing

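Of 1809 values of called members under 24 alternatives, 1579 kept direction and side of the threshold, 202 lost the call and 28 changed sign. With C1 in place of sgControl, 6 members rose and 5 fell in sgEED-Epi, and 4 rose and 7 fell in sgKMT2D-Epi. In sgEED-Epi the log2 changes that turned were those of ATF3 (2.26), STC2 (2.16), PPP1R15A (1.01), SLC6A9 (0.77), MTHFD2 (0.59), SLC1A4 (0.37), CTH (0.35), PSAT1 (0.34), CEBPG (0.33), SLC7A5 (0.28), SLC3A2 (0.22), PYCR1 (0.20) and CBS (0.11). In sgKMT2D-Epi they were those of ATF3 (0.69), MTHFD2 (0.60), PSAT1 (0.53), SLC1A4 (0.40), CTH (0.37), SLC6A9 (0.36), DDIT3 (0.24), JDP2 (0.23), PPP1R15A (0.20) and CEBPG (0.12). Most of these turned values did not pass against C1, and this alternative compares with other libraries. With the GC and length correction CEBPB and SLC7A5 turned over sgControl in sgEED-Epi (0.19 and 0.08) and sgKMT2D-Epi (0.74 and 0.12), and 22 members rose and 2 fell in C2-Epi over C1. STC2 in C2-Mes over C2-Epi ranged from -0.07 without C2-Mes replicate 1, a change of sign, to 1.70 without C2-Mes replicate 2. The cause was not tested. The fits of only the compared libraries leave fewer samples for the spread. There 21 rose and 8 fell in C2-Epi over C1 (30.6% and 32.3% of all genes in that fit). In C2-Mes over C2-Epi 4 rose and 1 fell (11.3% and 9.68%). In such fits 5 rose in sgEED-Mes (15.9%) and 8 in sgKMT2D-Mes (37.5%). The sgEED and C2 changes differed for 6 members (6.26% of all genes more positive and 5.89% more negative in sgEED). With no filter on low counts 6 fell in C2-Mes. Members that rose in sgKMT2D-Epi over sgControl, 0 in the fit reported, were 1 with DESeq2, 1 with RLE scaling, 1 with the replicate block, 2 with the GC and length correction, 2 with no filter and 2 with only the compared libraries.

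Leaving out each library gave ranges. In the comparisons with C1 or sgControl, each of these fits also called a smaller share of all genes than the fit reported. The same held for sgEED-Mes over sgEED-Epi and for sgKMT2D-Mes over sgKMT2D-Epi. In sgControl over C1 26 to 31 members rose and 0 fell. In sgEED-Epi over sgControl 0 to 1 rose and 24 to 31 fell, and in sgKMT2D-Epi 0 to 1 rose and 28 to 30 fell. In C2-Epi over C1 7 to 12 rose and 2 to 3 fell. In C2-Mes over C2-Epi 6 to 11 rose and 3 to 13 fell, in sgEED-Mes over sgEED-Epi 4 to 7 rose and 6 to 10 fell, and in sgKMT2D-Mes over sgKMT2D-Epi 1 rose and 17 to 19 fell. Against C1, where this was added after seeing the data, 4 to 5 rose and 2 to 3 fell in sgEED-Epi, and 2 to 3 rose and 3 to 4 fell in sgKMT2D-Epi. In the tests of differences the counts of members and of all genes called both moved with the library left out. The median difference of log2 changes over members was -0.50 to -0.26 (sgEED over C2), -1.21 to -0.77 (sgKMT2D over C2) and 0.41 to 0.56 (sgEED over sgKMT2D).

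Replicate numbers did not pair the samples: deviations of same-numbered libraries correlated by -0.37 (C2-Mes and C2-Epi) to 0.25 (sgEED-Epi and sgControl). The replicate block left 30 members higher in sgControl over C1 and 13 higher and 3 lower in C2-Mes, and changed no count by over 1.5 times other than the one from 0 to 1 above. The crossed pairing for C2, chosen after seeing the data, also gave 13 and 3. Depth limits FGF21, which was not tested.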

Other observations

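Proline metabolism held values that no comparison above describes. PRODH, which breaks proline down, had a mean of 3.0 CPM in sgEED-Epi and 2.05 CPM in sgKMT2D-Epi, against 30.7 CPM in sgControl and 30.3 CPM in C1. It fell against sgControl by log2 3.35 and 3.90 and against C1 by log2 3.34 and 3.88, with nearly equal changes against either control. In C2-Epi PRODH had 9.36 CPM, against 30.3 CPM in C1 (log2 -1.69, adjusted p = 0.0012). The arginine carrier SLC7A2 rose in sgEED-Epi and sgKMT2D-Epi over C1 (log2 2.37 and 2.48) and over sgControl (log2 1.72 and 1.82), and in C2-Epi over C1 (log2 1.67) and its mean in C1 was 15.8 CPM. GLDC, of the glycine cleavage system, rose in C2-Epi over C1 (log2 2.80).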
